A study of Danio rerio with 54 samples.

Results

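The genes described here are 9 components of the interferon response of zebrafish, namely *stat1a*, *stat1b*, *stat2*, *irf9*, *irf1b*, *irf7*, *isg15*, *mxa* and *rsad2*. They were taken by symbol from a table of 30097 genes, in which 10 gene IDs carried these symbols because *stat2* had a second entry (ENSDARG00000116348) with a mean of 0.0859 TPM. TPM is a transcript level corrected for transcript length and scaled to the total of each library. The table covered 54 whole-larva samples of the AB strain in 18 groups of 3, and all larvae had been raised at 28 °C. The controls stayed at 28 °C and were collected at 96, 97, 98, 102, 108 and 132 h post fertilization (ctrl_96hpf to ctrl_132hpf). Larvae of the lethal cold series were moved to 10 °C at 96 hpf and kept there for 1, 2, 6, 12 or 24 h (lc_1h to lc_24h). In the recovery series, 12 h at 10 °C were followed by 1, 2, 6, 12 or 24 h at 28 °C (re_1h to re_24h). Survivors of 24 h at 10 °C were sorted after 24 h at 28 °C by morphology and swimming. Abnormal larvae (er_ab) had visible defects and could not swim normally, and normal larvae (er_nor) swam normally. Each sample was a tube of larvae, dead fish were removed before collection, and the medium took about 1 h to warm up, which is the time point of re_1h. With whole larvae, a change in a cell type's number and a change in its RNA per cell cannot be told apart.

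Interferons are secreted proteins by which vertebrate cells warn each other of viruses. Their receptors activate JAK kinases, which phosphorylate STAT proteins, and STAT proteins and IRF9 assemble into a transcription factor that switches on interferon-stimulated genes. IRF7 and IRF1 are transcription factors that are themselves induced and that drive interferon genes or interferon-stimulated genes, and proteins such as ISG15, Mx and viperin (the *rsad2* product) act against viruses. In zebrafish *stat1a* and *stat1b* are a pair of paralogs.

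The 9 genes spanned a wide range of levels. In the 18 control samples the median was highest for *stat1a* and *irf9* and below 1 TPM for *stat1b*, *mxa* and *rsad2*. Over all 54 samples, *stat1a* (ENSDARG00000006266) lay between 11.9 and 31.8 TPM and *irf9* (ENSDARG00000016457) between 3.98 and 35.1 TPM. The ranges were 3.12 to 35.6 TPM for *irf1b* (ENSDARG00000043249), 2.56 to 13.4 TPM for *irf7* (ENSDARG00000045661) and 3.76 to 13.2 TPM for *stat2* (ENSDARG00000031647). *isg15* (ENSDARG00000086374) ran from 0.347 to 15.5 TPM and *stat1b* (ENSDARG00000076182) from 0.0265 to 4.32 TPM. The antiviral effectors *mxa* (ENSDARG00000021688), at 0.0201 to 0.482 TPM, and *rsad2* (ENSDARG00000004952), at 0 to 1.45 TPM, stayed near the lower end of the scale. Genes entered the test when all 3 samples of at least 1 group had 1 TPM or more, which 25387 genes and 7 of the 9 did. *mxa* and *rsad2* passed in no group and are given as values, apart from *rsad2* calls made with no filter on low values. *stat1b* passed only through re_6h and er_ab, the groups in which it was highest, so its being called there is in part built into the filter, and its p-values are given only from the fit with no filter on low values.

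**Figure D1:**
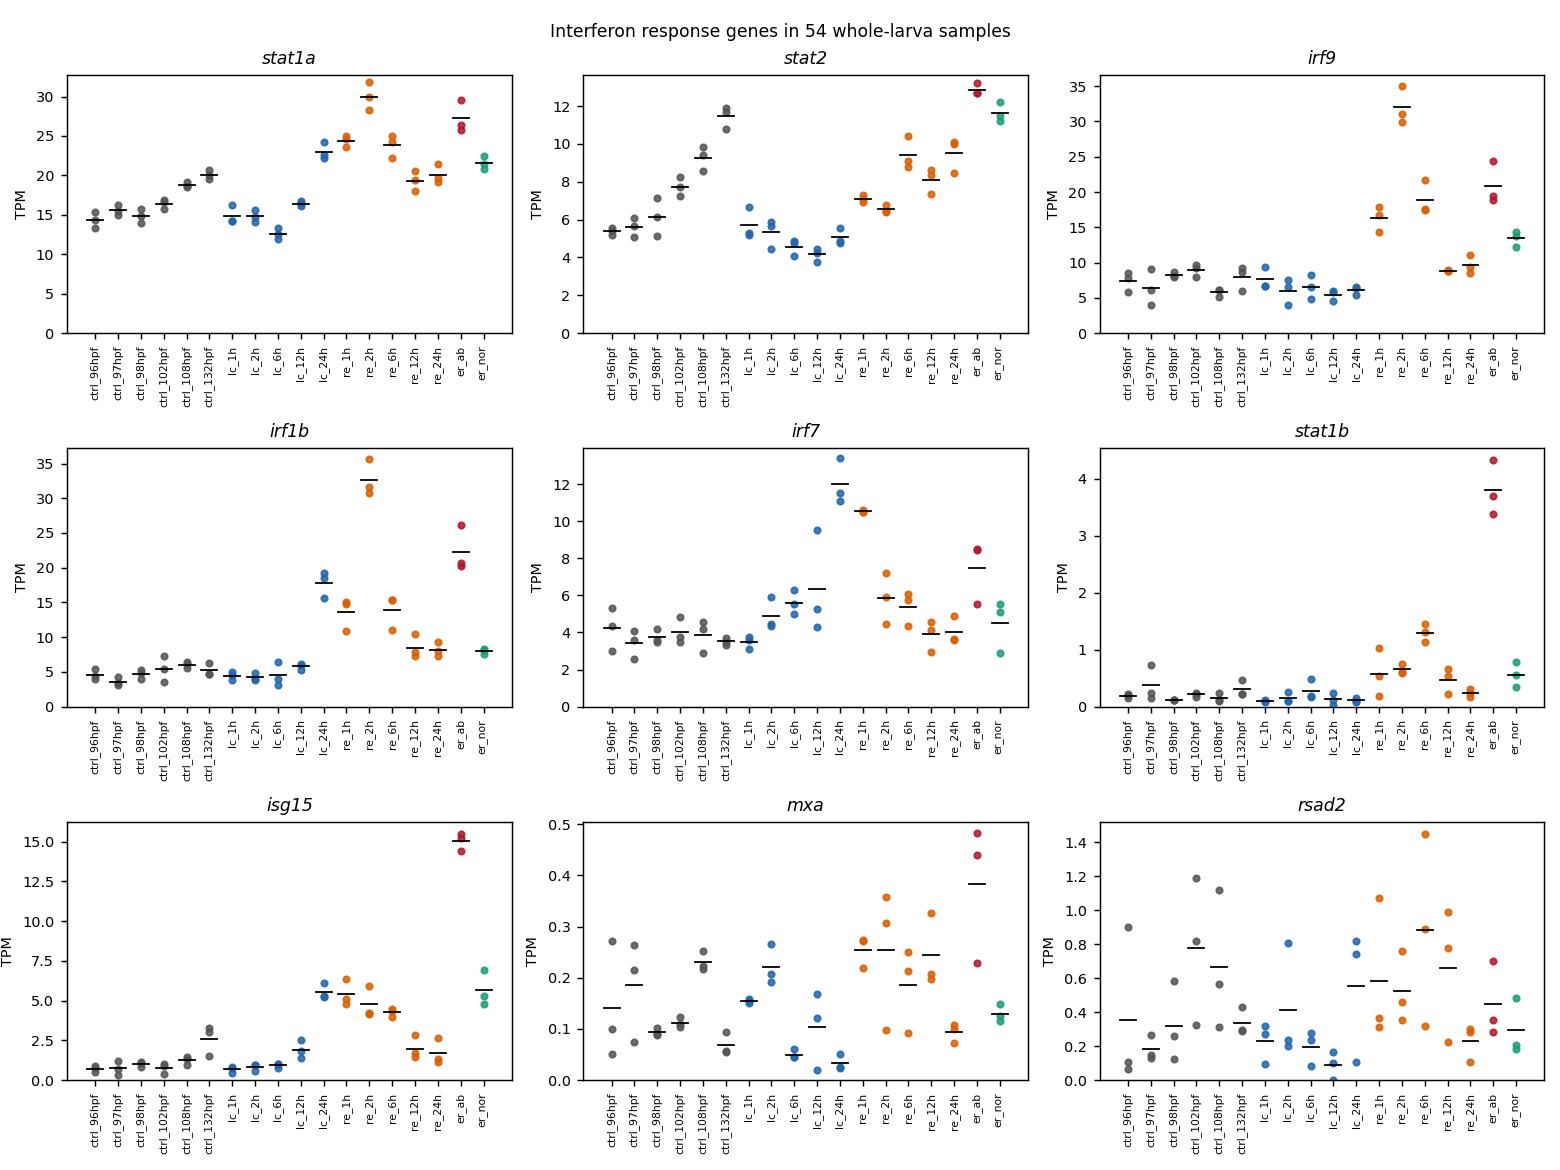
TPM (linear axis from 0) of the 9 interferon response genes in each of the 54 samples, by group; points are samples and black lines are group means (n = 3), with controls in grey, cold in blue, recovery in orange, er_ab in red and er_nor in green. *irf9* and *irf1b* reached their highest means, 32.0 and 32.6 TPM, in re_2h, *irf7* its highest, 12.0 TPM, in lc_24h, and *isg15* and *stat1b* theirs, 15.0 and 3.80 TPM, in er_ab.

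Each comparison was tested with limma on log2(TPM + 1) over the 25387 genes, and a gene was called when its fold was at least 1.5 and its Benjamini-Hochberg adjusted p at most 0.05. Log2 differences below are on that scale, group minus reference, and understate the change of genes near 1 TPM. Nothing in the sources used here says whether the 3 samples of a group came from separate clutches, and the p-values reflect only the variation among tubes. In the first 6 h of cold none of the 7 tested genes was called against ctrl_96hpf, where 0.284% (1 h), 0.748% (2 h) and 4.83% (6 h) of all tested genes were. At 12 h of cold 1 gene was called, *isg15*, which was higher, as were 5.56% of all genes. At 24 h 4 genes were higher and 0 lower, while 9.30% of all genes were called higher and 24.3% lower. Upon rewarming, compared with lc_12h, 5 were higher at 1 h, 4 at 2 h and 5 at 6 h, where 12.3%, 14.1% and 16.6% of all genes were called higher. None was lower at these times, against 4.55%, 6.55% and 5.24% of all genes. At 12 and 24 h of rewarming 2 were called, *irf9* and *stat2*, both higher, as were 15.8% and 13.0% of all genes. Between the survivors, 5 of the 7 were higher in er_ab and 0 lower, against 5.58% and 4.74% of all genes. Without *stat1b* these counts were 4 of 6 between the survivors and 4 of 6 at 6 h of rewarming. The 5 recovery comparisons share the lc_12h samples, and the 5 cold comparisons share ctrl_96hpf.

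**Figure D2:**
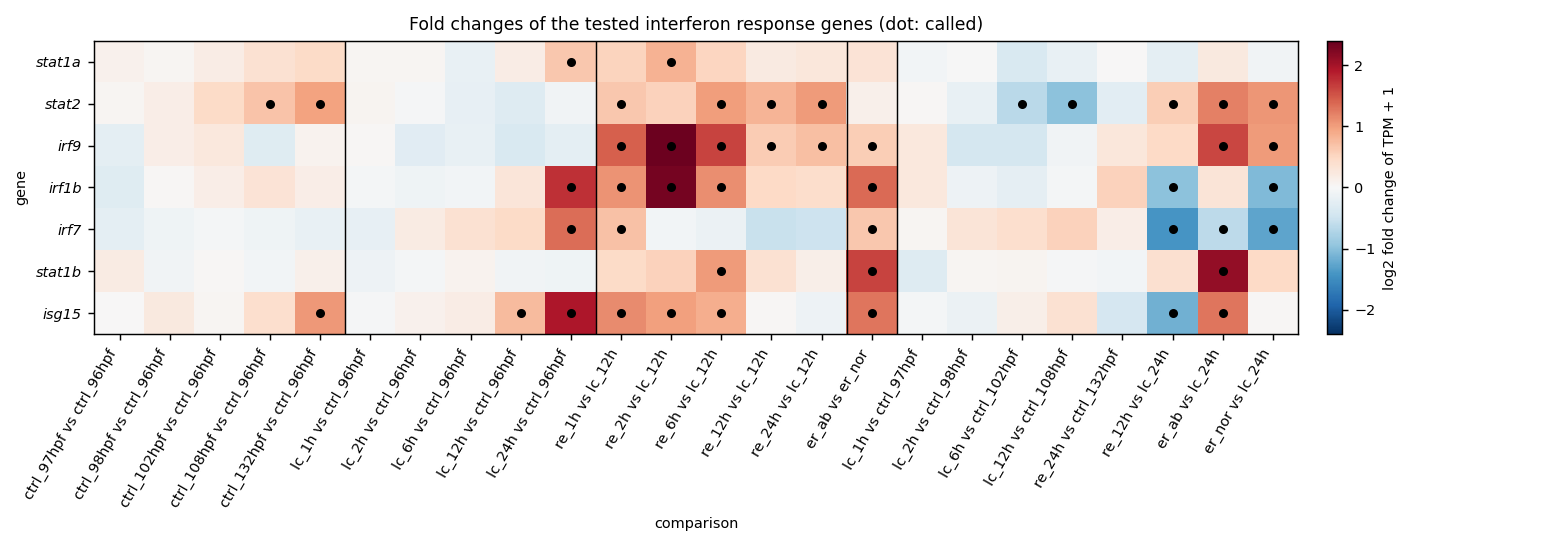
Log2 fold changes on the TPM + 1 scale (red higher, blue lower, group minus reference) of the 7 tested genes in 24 comparisons; black dots mark called changes, and vertical lines separate development, cold, recovery, survivors and the comparisons added here. The darkest cells are *irf9* and *irf1b* at re_2h, 2.36 and 2.30, and *stat1b* in er_ab against lc_24h, 2.10.

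*stat1a*, which encodes a STAT transcription factor, was higher after 24 h of cold and after 2 h of rewarming. In ctrl_96hpf it measured 15.4, 14.4 and 13.3 TPM, and after 24 h of cold 24.2, 22.6 and 22.2 TPM. The groups did not overlap, and the log2 difference was 0.64 (SE 0.06, adjusted p = 4.9e-12). No control of the same age, 120 hpf, was collected, and the 28 °C controls of 108 and 132 hpf had means of 18.8 and 20.1 TPM. After 2 h of rewarming the values were 31.8, 28.3 and 29.9 TPM against 16.7, 16.1 and 16.5 TPM in lc_12h. All 3 re_2h samples lay above every lc_12h sample (log2 difference 0.83, SE 0.06, adjusted p = 8.3e-15). The 1 h and 6 h differences, 0.54 and 0.51, had adjusted p of 7.4e-10 and 3.5e-09 and stopped short of the 1.5-fold line. At 24 h of rewarming *stat1a* and its same-age control had equal means of 20.1 TPM.

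*stat2*, whose product joins IRF9 in the type I interferon complex, followed age in the controls. It measured 5.54, 5.41 and 5.18 TPM at 96 hpf, 9.83, 8.56 and 9.40 TPM at 108 hpf and 11.9, 10.8 and 11.7 TPM at 132 hpf. These ranges did not overlap. At 97, 98 and 102 hpf none of the 7 genes was called against 96 hpf, with 0.240%, 0.205% and 1.37% of all genes called. At 108 hpf *stat2* alone was called, and at 132 hpf *stat2* and *isg15*, all higher, as were 1.87% and 4.13% of all genes (*stat2* log2 differences 0.68 and 0.97, SE 0.09 each, adjusted p = 6.1e-07 and 1.5e-11). In the cold this increase was not seen. The lc_12h samples measured 4.46, 3.76 and 4.26 TPM, below each sample of the 108 hpf control (log2 difference -0.99, SE 0.09, adjusted p = 7.1e-12), in a comparison where 14.1% of all genes were called lower. At 6 h of cold the difference from the 102 hpf control was -0.65 (SE 0.09, adjusted p = 4.5e-07), with 3.68% of all genes called lower. At 1 and 2 h of cold and at 24 h of rewarming none of the 7 was called against a control of the same age, with 0.571%, 1.14% and 6.08% of all genes called. At 24 h of rewarming *irf1b* passed as higher and *isg15* as lower without ctrl_132hpf replicate 3 (0.68 and -0.65) or without re_24h replicate 1 (0.63 and -0.64).

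Upon rewarming *stat2* rose from this low level. It measured 7.30, 6.92 and 7.08 TPM at re_1h, 6.80, 6.48 and 6.42 TPM at re_2h, 8.79, 9.11 and 10.4 TPM at re_6h, 8.65, 8.36 and 7.35 TPM at re_12h and 10.0, 10.1 and 8.45 TPM at re_24h. All were above the lc_12h samples. The log2 differences were 0.65 at 1 h, 1.01 at 6 h, 0.82 at 12 h and 1.03 at 24 h (SE 0.09 each, adjusted p = 1.4e-07, 3.7e-12, 8.5e-10 and 2.6e-12). The 2 h difference of 0.55 (adjusted p = 2.7e-06) stayed under the 1.5-fold line. It passed that line with a pseudocount of 0.1 (0.65) or 0.5 (0.60) and without lc_12h replicate 1 (0.60). The 1 h call was lost with median-of-ratios scaling (0.58) and quantile normalization (0.51). The re_24h samples still lay below the 132 hpf controls, with a difference of -0.25 (adjusted p = 0.043) that did not reach 1.5-fold. In the survivors *stat2* reached 12.7, 12.7 and 13.2 TPM in er_ab and 11.5, 12.2 and 11.2 TPM in er_nor, a difference of 0.13 (SE 0.09, adjusted p = 0.28).

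*irf9*, the DNA-binding partner of STAT proteins in that complex, was not called at any time in the cold against ctrl_96hpf but rose upon rewarming. After 12 h at 10 °C it measured 5.89, 5.90 and 4.58 TPM, and the 108 hpf controls 6.16, 6.14 and 5.12 TPM, with overlapping ranges. After 24 h at 10 °C the values were 5.47, 6.41 and 6.48 TPM. At re_1h they were 16.7, 14.4 and 17.9 TPM, at re_2h 31.0, 29.9 and 35.1 TPM, and at re_6h 17.6, 17.4 and 21.7 TPM. Each of these 9 samples was above every control and cold sample. Compared with lc_12h the log2 differences were 1.43, 2.36 and 1.62 (SE 0.18 each, adjusted p = 2.8e-08, 7.2e-14 and 1.3e-09). By 12 h the samples had come down to 8.75, 8.84 and 8.89 TPM, where the call (0.61, adjusted p = 0.0051) was lost without lc_12h replicate 3 (0.51) and with median-of-ratios scaling or quantile normalization (0.42 each). At 24 h *irf9* was not called against the 132 hpf control (9.66 ± 1.32 and 7.92 ± 1.77 TPM, SD, n = 3, adjusted p = 0.33 by limma).

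*stat1b*, the paralog of *stat1a*, was nearly silent in most groups. The 18 control samples lay between 0.0917 and 0.728 TPM and the lc_24h samples measured 0.0778, 0.105 and 0.155 TPM. Upon rewarming it measured 0.529, 1.02 and 0.182 TPM at re_1h, 0.595, 0.756 and 0.607 TPM at re_2h and 1.14, 1.31 and 1.45 TPM at re_6h. The 6 h samples were all above the lc_12h samples of 0.246, 0.0265 and 0.121 TPM (log2 difference 1.03, SE 0.14, adjusted p = 4.2e-08 by limma with no filter on low values). Its highest values came in er_ab, at 3.69, 3.37 and 4.32 TPM, against 0.777, 0.344 and 0.547 TPM in er_nor.

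*irf1b*, a transcription factor of the IRF1 type that the reference annotation also lists as *irf11*, responded to both long cold and rewarming. It measured 4.41, 5.43 and 4.01 TPM in ctrl_96hpf and 6.03, 5.26 and 6.19 TPM after 12 h of cold. After 24 h the values were 19.3, 15.7 and 18.5 TPM, above all 18 control samples (log2 difference from ctrl_96hpf 1.75, SE 0.17, adjusted p = 2.7e-11). On rewarming after 12 h of cold it measured 10.9, 15.0 and 14.8 TPM at 1 h, 30.7, 31.6 and 35.6 TPM at 2 h and 15.4, 15.4 and 11.1 TPM at 6 h. The differences from lc_12h were 1.08, 2.30 and 1.12 (SE 0.17 each, adjusted p = 2.1e-06, 2.9e-14 and 9.5e-07). The re_2h samples were the highest of all 54. The re_12h mean was 8.50 ± 1.68 TPM, and the re_24h mean of 8.18 ± 1.01 TPM was 0.56 above the 132 hpf control (5.22 ± 0.867 TPM, SD, n = 3, adjusted p = 0.014 by limma), under the fold needed for a call.

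*irf7*, which in mammals and fish amplifies interferon production, was the gene of the 9 whose peak came in the cold itself. It measured 4.33, 5.33 and 3.01 TPM in ctrl_96hpf, 5.24, 4.31 and 9.52 TPM at lc_12h, where replicate 3 was the highest, and 11.1, 13.4 and 11.5 TPM at lc_24h. The lc_12h mean was 0.55 above the 108 hpf control (SE 0.20, adjusted p = 0.023), below the 1.5-fold line, which was passed with median-of-ratios scaling (0.71), quantile normalization (0.73), a pseudocount of 0.1 (0.65) and without any of 4 libraries in turn, which were ctrl_108hpf replicate 1 (0.65) or 3 (0.60) and lc_12h replicate 1 (0.64) or 2 (0.75). The 24 h samples did not overlap with any control sample (log2 difference 1.34, SE 0.20, adjusted p = 3.7e-07). At re_1h it stood at 10.5, 10.6 and 10.5 TPM, 0.71 above lc_12h (SE 0.20, adjusted p = 0.004). That call was lost without lc_12h replicate 2 (0.51) and grew to 1.00 without lc_12h replicate 3. It was also lost with only these groups in the fit (adjusted p = 0.061) and with quantile normalization (0.56). At re_2h, when *irf9* and *irf1b* peaked, *irf7* was back at 7.22, 4.43 and 5.89 TPM, overlapping with lc_12h. At re_12h it measured 4.13, 2.97 and 4.58 TPM and was not called (-0.54, adjusted p = 0.025). It passed as lower there with median-of-ratios scaling (-0.72) and without lc_12h replicate 1 (-0.62), lc_12h replicate 2 (-0.74) or re_12h replicate 3 (-0.64).

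*isg15*, which encodes a ubiquitin-like protein attached to other proteins in infected cells, was low in young controls and increased with age. The samples measured 0.761, 0.498 and 0.861 TPM at 96 hpf and 3.27, 3.02 and 1.51 TPM at 132 hpf (log2 difference 1.04, SE 0.19, adjusted p = 2.5e-05). After 12 h of cold it measured 1.41, 1.85 and 2.50 TPM. This was 0.76 above ctrl_96hpf (SE 0.19, adjusted p = 0.0013) but overlapped with the 108 hpf control of 1.47, 1.34 and 0.967 TPM (0.36, adjusted p = 0.12). After 24 h of cold the values were 5.31, 6.10 and 5.22 TPM, above all 18 controls (1.94, SE 0.19, adjusted p = 2.4e-11 against ctrl_96hpf). Rewarming after 12 h of cold gave 6.34, 5.09 and 4.78 TPM at 1 h, 4.17, 5.94 and 4.21 TPM at 2 h and 4.37, 4.0 and 4.50 TPM at 6 h. The differences from lc_12h were 1.14, 0.99 and 0.87 (SE 0.19 each, adjusted p = 5.2e-06, 4.4e-05 and 0.00022). By 12 h it was at 1.68, 2.82 and 1.43 TPM, overlapping with lc_12h.

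The remaining antiviral effectors stayed low and did not enter the test. *mxa*, which encodes an antiviral dynamin-like GTPase, measured 0.0263, 0.0518 and 0.0237 TPM at lc_24h, the lowest group mean, and 0.440, 0.228 and 0.482 TPM in er_ab, the highest. The er_nor samples were at 0.116, 0.148 and 0.126 TPM, below all er_ab samples. *rsad2* had its highest mean at re_6h with 1.45, 0.320 and 0.889 TPM, while 1 of the 3 lc_12h samples was listed at 0. The *rsad2* ranges of each group and the next in the order of means overlapped throughout the 18 groups, and 4 of the 54 samples reached 1 TPM. Without a filter on low values *rsad2* was called lower in lc_12h than in the 108 hpf control (-0.59, adjusted p = 0.034) and higher in re_6h than in lc_12h (0.75, adjusted p = 0.0062).

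The comparison of the survivors asked which genes differed between abnormal and normal larvae after the same 24 h of cold and 24 h of rewarming. *stat1b*, *irf1b*, *isg15*, *irf7* and *irf9* were higher in er_ab. *isg15* measured 15.2, 14.4 and 15.5 TPM in er_ab and 4.81, 6.93 and 5.29 TPM in er_nor, and the er_ab samples were the highest of all 54 (log2 difference 1.28, SE 0.19, adjusted p = 1.2e-06). *irf1b* measured 26.1, 20.2 and 20.7 TPM against 8.18, 7.62 and 8.25 TPM (1.36, SE 0.17, adjusted p = 3.9e-08). For *stat1b*, whose sample values stand above, the difference was 1.63 (SE 0.14, adjusted p = 1.1e-12 with no filter on low values). *irf9* measured 19.4, 18.8 and 24.4 TPM against 14.3, 12.2 and 13.8 TPM. The ranges did not overlap, and the difference of 0.59 (SE 0.18, adjusted p = 0.011) was just over the 1.5-fold line of 0.585. It fell under that line without er_ab replicate 3 (0.48), without er_nor replicate 2 (0.53) and with quantile normalization (0.56). *irf7* measured 8.50, 5.53 and 8.47 TPM against 5.11, 5.56 and 2.89 TPM, with overlapping ranges (0.64, SE 0.20, adjusted p = 0.013). Its call was lost without er_ab replicate 1 (0.55), er_ab replicate 3 (0.55) or er_nor replicate 3 (0.40), and with only the survivor groups in the fit (adjusted p = 0.1). Without er_ab replicate 3 the count of called genes went from 5 to 3. *stat1a* at 26.4, 25.8 and 29.6 TPM against 22.4, 21.5 and 20.8 TPM was separated between the groups, but by 0.32 (SE 0.06, adjusted p = 3.7e-05), a fold of 1.25.

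Both survivor groups came from larvae that had spent 24 h at 10 °C, so they were also set beside lc_24h, the end of that cold period, in comparisons that share the lc_24h samples. The survivors were collected at 144 hpf and lc_24h at 120 hpf, and no control of either age was collected. Age, rewarming and the loss of larvae that died after the cold cannot be told apart in these comparisons. For er_ab 27.3% of all genes were called higher and 10.7% lower, and for er_nor 25.9% and 8.61%. In er_nor *irf1b* and *irf7* were lower than in lc_24h (-1.06 and -1.27, adjusted p = 1.7e-06 and 9.7e-07) and *irf9* and *stat2* higher (1.02 and 1.06, adjusted p = 7.9e-06 and 4.9e-13). *isg15* in er_nor, 5.67 ± 1.11 TPM, overlapped with the 5.54 ± 0.483 TPM of lc_24h (SD, n = 3). In er_ab *isg15*, *irf9* and *stat2* were higher than in lc_24h (1.29, 1.61 and 1.20), and so was *stat1b* (2.10, adjusted p = 9.9e-17 by limma with no filter on low values). *irf7* was lower by limma (-0.63, adjusted p = 0.0063), a call lost without lc_24h replicate 2 (-0.56) or er_ab replicate 2 (-0.45). The median of all genes had moved by 0.21 and 0.24 in these comparisons, and none of these directions turned with median-of-ratios scaling. At 120 hpf, larvae rewarmed for 12 h (re_12h) had less *isg15*, *irf1b* and *irf7* than the larvae of that age still at 10 °C (-1.16, -0.99 and -1.42), with 28.2% of all genes called higher, 7.86% lower and an all-gene median shift of 0.30. *stat2* was higher there by 0.59, which fell to 0.30 with median-of-ratios scaling and lost its call without any of lc_24h replicate 1 (0.55) or 3 (0.57) and re_12h replicate 1 (0.55) or 2 (0.57).

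The pair *stat1a* and *stat1b* did not keep a fixed ratio. The ratio of mean TPM was 75.0 in ctrl_96hpf, 205 in lc_24h, 18.3 in re_6h, 38.8 in er_nor and 7.19 in er_ab. In the controls alone it ran from 41.3 at 97 hpf to 128 at 98 and 108 hpf. The high ratios rest on *stat1b* means near 0, such as 0.192 TPM in ctrl_96hpf and 0.112 TPM in lc_24h, and are imprecise. As log2((*stat1a* + 1)/(*stat1b* + 1)), the er_ab samples lay between 2.52 and 2.62 and the er_nor samples between 3.72 and 4.07. The difference was -1.31 (two-sided exact permutation p = 0.1, the smallest p that 3 against 3 samples allow). Groups of this size that do not overlap always give this p. The value restates the *stat1a* and *stat1b* differences between the survivors given above and adds no separate support. *stat1b* had passed the filter only through re_6h and er_ab. How reads shared by near-identical stretches of the pair were divided by the quantification is not known from the table.

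**Figure D3:**
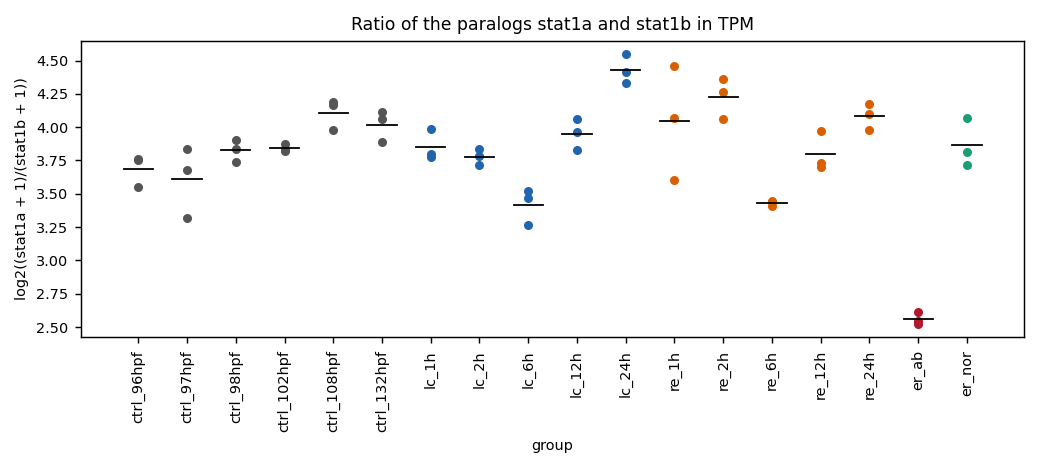
Log2 ratio of *stat1a* to *stat1b*, each as TPM + 1, in the 54 samples by group; points are samples, lines are means of 3, and the axis does not start at 0. The 3 er_ab samples, between 2.52 and 2.62, lie below all other samples.

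The rest of the pathway was read from lists of ligands, receptors, kinases and inhibitors, sensors, other IRF factors, effectors and interferon-gamma genes. Of 8 ligand symbols, 2 were in the table, *ifnphi1* and *ifnphi3*, type I interferons of fish. They ranged from 0 to 1.16 TPM and from 0 to 1.05 TPM over the 54 samples, and neither entered the test. The group means of *ifnphi3* were highest in lc_12h and lc_24h, at 0.633 ± 0.365 and 0.715 ± 0.397 TPM (SD, n = 3), and 0.321 ± 0.307 TPM in er_ab.

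After 24 h of cold, when 9.30% of all genes were called higher and 24.3% lower, genes of the lists were called in both directions. Of 7 tested receptor genes 1 was higher, *ifngr1*, the ligand-binding chain of an interferon-gamma receptor (13.4 against 4.87 TPM, log2 difference 1.30, SE 0.13), and 2 were lower, *ifngr2* (-0.78) and *crfb12* (-0.92). Of 12 kinases and feedback inhibitors 0 were higher and 3 lower, *pias4a*, *ptpn2a* and *ptpn6*, a share near that of all genes. These 3 encode inhibitors of STAT or JAK signalling, as do most genes of that list. The kinase gene *jak1* was not called but measured 11.4, 13.6 and 13.1 TPM, below the 19.9, 19.5 and 18.9 TPM of ctrl_96hpf. Of 11 sensors and adaptors 2 were higher and 4 lower. The higher ones were *traf3*, an adaptor of virus and Toll-like receptor signalling (25.1 ± 0.428 against 4.33 ± 0.46 TPM, SD, n = 3, log2 difference 2.29), and *myd88*, the main Toll-like receptor adaptor (17.3 ± 1.74 against 6.35 ± 0.456 TPM, 1.31). Among the lower were the kinases *tbk1* (-0.62) and *ikbke* (-0.95), which activate IRF3 and IRF7. Of 15 other effectors 1 was higher, the exonuclease gene *isg20* (48.2 against 18.1 TPM, 1.37), and 4 lower, including *parp9*, *ifit16* and *ifit14*. With median-of-ratios scaling the calls of *ifngr2* (-0.52), *tbk1* (-0.36), *parp9* (-0.57), *ifit16* (-0.53) and *pias4a* (-0.58) were lost, all but the last also with quantile normalization. Genes of the other IRF and interferon-gamma lists were called as well, among them *irf2a*, *irgq2*, *b2m*, *gbp3* and *tapbp.2*. The calls of *gbp3* and *tapbp.2* were lost with median-of-ratios scaling (-0.43 and -0.49) and with quantile normalization (-0.37 and -0.41). The list medians lay between -0.48 and 0.13 where the median of all genes was -0.23, and that of the 7 tested interferon response genes was 0.64.

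Of the 4 JAK kinase genes 2 rose upon rewarming, *jak1* and *tyk2*. *jak2a* and *jak2b* were not called at 1, 2 or 6 h, with differences of -0.21 to 0.08 and 0.09 to 0.36. *jak1*, the kinase shared by all interferon receptors, measured 12.7 ± 0.408 TPM at lc_12h, 28.0 ± 3.07 at re_1h, 44.4 ± 2.02 at re_2h and 33.3 ± 4.15 at re_6h (SD, n = 3). The log2 differences were 1.07, 1.73 and 1.32 (SE 0.07 each, adjusted p = 1.9e-16, 6.3e-23 and 4.1e-19 by limma). The lc_12h samples of *jak1* lay below the 108 hpf controls of 20.7, 20.4 and 19.4 TPM. Its re_1h samples (29.6, 29.9 and 24.5 TPM) were above those controls. *tyk2*, the partner kinase for type I interferon, rose from 1.83 to 3.77, 4.06 and 4.24 TPM (0.75, 0.84 and 0.89). *socs1a*, a feedback inhibitor of JAK kinases, rose from 3.24 TPM to 10.2 at 1 h and 9.20 at 2 h (1.44 and 1.31). Of the 12 genes of that list 3, 4 and 4 were higher at 1, 2 and 6 h and 0 lower, where 12.3%, 14.1% and 16.6% of all genes were higher. The others of them were the phosphatase genes *ptpn2a* at 2 and 6 h (0.85 and 0.77) and *ptpn6* at 6 h (1.03), and the 6 h call of *ptpn2a* was lost with median-of-ratios scaling (0.58) and quantile normalization (0.57).

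The receptor, sensor and effector lists are set against the same shares of all genes. Of 7 receptor genes 1 was higher at 1 h, 3 at 2 h and 4 at 6 h, among them *crfb12* (4.60 against 1.09 TPM at 2 h, 1.42) and *il10rb*, a chain shared with interleukin-10 type receptors (45.4 against 23.7 TPM at 1 h, 0.91). Of the 11 sensors and adaptors 1, 5 and 7 were higher, with *ticam1* at 1.27 in re_2h and *ikbke* at 1.41 in re_6h, and 1 was lower at all 3 times, *traf3* (-0.74, -0.78 and -1.47). At re_6h the calls of *ifngr2* (0.45), *crfb2* (0.46) and *tbk1* (0.45) were lost with median-of-ratios scaling, and with quantile normalization as well. The same held at re_2h for *ifngr2* (0.49) and *tbk1* (0.55). Among the 6 other IRF genes tested *irf2* rose at 1, 2 and 6 h (0.95, 1.32 and 0.82), *irf3* at 1 h (3.23 against 0.707 TPM, 1.30) and *irf2a* at 2 h (23.5 against 10.9 TPM, 1.04). Of the 15 effectors 2, 3 and 4 were higher, and at 6 h 1 was lower, *isg20* (-0.74). Among the higher, *mxe* at 2 and 6 h and *epsti1* at 2 h had entered the test only through survivor groups. With no filter *mxe* differed by 0.64 and 0.67 and *epsti1* by 0.59 (adjusted p = 2.7e-06, 1.2e-06 and 0.00023 by limma). Median-of-ratios scaling lost the calls of *epsti1* (0.57) and, at 6 h, *mxf* (0.51). Quantile normalization lost those of *mxe* (0.55) and *mxf* (0.38) at 6 h. *ifitm1*, an interferon-induced membrane protein, went from 16.4 to 35.7, 74.9 and 129 TPM (1.07, 2.13 and 2.88). Its lc_12h samples (15.2, 18.5 and 15.6 TPM) lay below the 108 hpf controls of 35.5, 38.2 and 35.1 TPM. The re_1h samples of *ifitm1* (42.4, 31.4 and 33.3 TPM) overlapped with those controls. Of 20 interferon-gamma and antigen presentation genes 1, 1 and 7 were higher, the last including the peptide transporters *tap1* (1.01) and *tap2t* (1.03). *irge4* of this list and the effector gene *pkz* had also entered the test only through a survivor group. With no filter both were called higher at re_6h (0.61 and 0.74, adjusted p = 0.0024 and 0.031 by limma). The calls at 1 h (*irgf1*) and 2 h (*irgq2*) were lost with median-of-ratios scaling (0.58 and 0.52) and with quantile normalization (0.57 and 0.52). At re_6h the list medians lay between 0.31 and 0.71 where the median of all genes was 0.18.

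**Figure D4:**
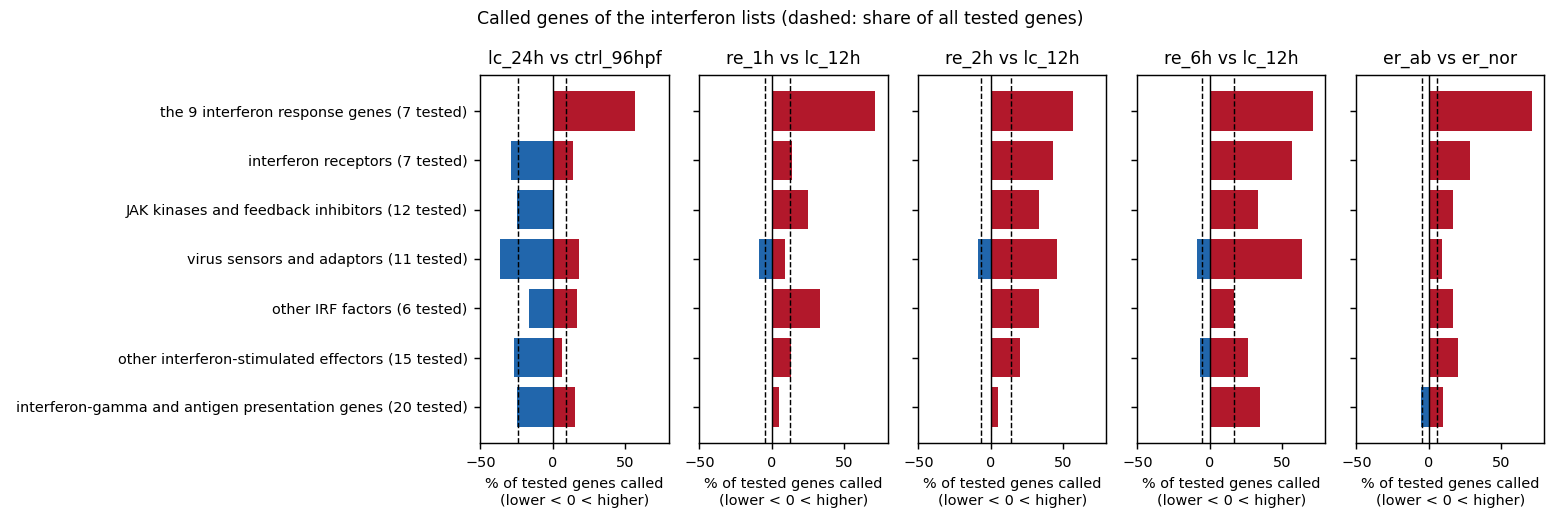
Share of the tested genes of each list called higher (red, right) or lower (blue, left) in 5 comparisons, in percent; the dashed lines give the shares of all 25387 tested genes. At re_1h the shares of receptors, sensors, effectors and interferon-gamma genes called higher lay close to or below the dashed line, and at lc_24h most list genes that were called were lower.

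In the survivors 5.58% of all genes were called higher in er_ab and 4.74% lower. Of these lists 12 genes were called, 11 of them higher in er_ab. *ifitm1* was the most abundant, at 489 ± 9.05 TPM in er_ab and 128 ± 12.5 TPM in er_nor (SD, n = 3, log2 difference 1.93, SE 0.16, adjusted p = 4.1e-13 by limma). A pair of Mx genes other than *mxa* was also higher, *mxf* (3.10 against 1.02 TPM, 1.02) and *mxe* (1.41 against 0.440 TPM, 0.74), which made 3 of 15 effectors, with 0 lower. *mxe* entered the test only through er_ab, and with no filter its difference was 0.74 (SE 0.10, adjusted p = 3.4e-07 by limma). *jak1* measured 46.9 ± 1.00 against 23.8 ± 0.403 TPM (0.95, adjusted p = 1.7e-14 by limma, n = 3) and *socs1a* 11.7 against 4.93 TPM (1.12). These were the 2 genes called of 12 kinases and inhibitors. Of 7 receptor genes 2 were higher, *il10rb* (77.9 against 42.4 TPM, 0.86) and *ifngr1* (12.9 against 7.27 TPM, 0.75). The DNA-sensing adaptor *tmem173*, known as STING, was the 1 sensor of 11 called (4.32 against 2.14 TPM, 0.77).

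The counts of the next lists are set against the same shares of all genes, 5.58% higher and 4.74% lower. Of the 6 other IRF genes tested 1 was higher, *irf3* (2.23 TPM in er_ab, 0.64), a factor that switches on interferon genes after virus sensing. Its call was lost without er_ab replicate 3 or er_nor replicate 3. In the interferon-gamma and antigen presentation list 2 of 20 were higher, *mhc1uba* (0.76) and *b2m* (0.62), a class I heavy chain and its partner, and 1 lower, the immunity-related GTPase gene *irge4* (-0.63). Another class I gene of the list, *mhc1zba*, measured 40.7 TPM in er_ab and 40.1 TPM in er_nor and was not called (0.03). *irge4* entered the test only through er_nor, the group in which it was higher, and with no filter its difference was -0.63 (SE 0.17, adjusted p = 0.0032 by limma). The *b2m* call was lost without any of 4 of the 6 libraries, and that of *irge4* without er_ab replicate 2 or er_nor replicate 3. The list medians lay between 0.02 and 0.28 and the median of all genes was -0.02.

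**Figure D5:**
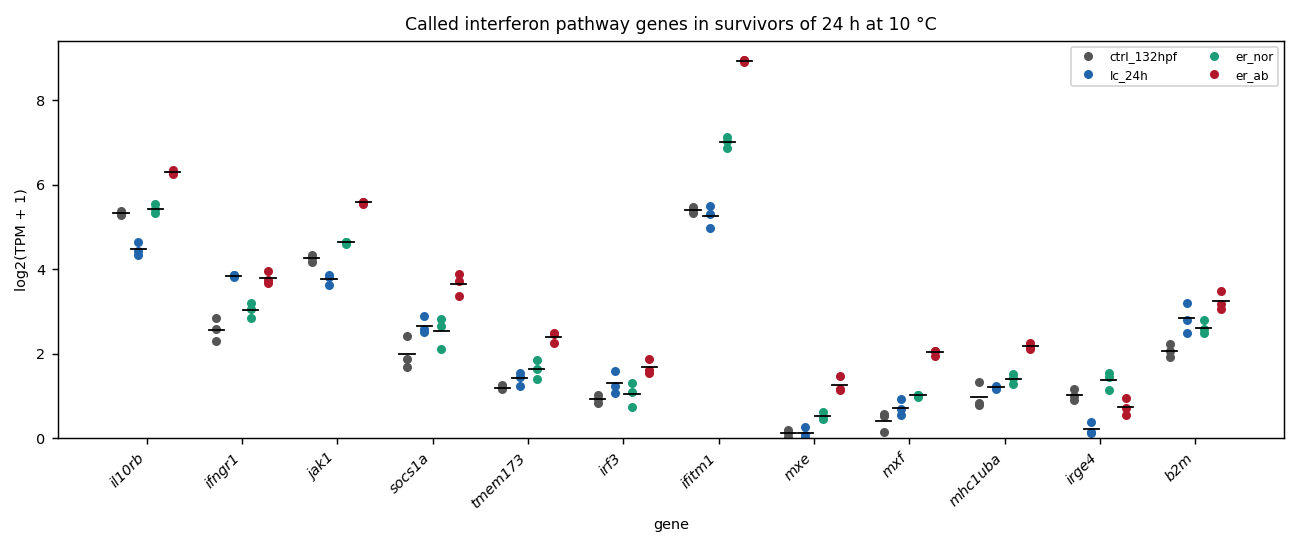
Log2(TPM + 1) of the 12 list genes called between er_ab and er_nor, with the 132 hpf control (grey), lc_24h (blue), er_nor (green) and er_ab (red); points are samples and lines are means of 3. In 11 of the 12 genes the er_ab samples lie above the er_nor samples, and *irge4* goes the other way.

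Markers of blood and skin cells moved in the same samples. Between the survivors 5.58% of all genes were called higher in er_ab and 4.74% lower. Of 8 neutrophil and inflammation markers 4 were higher in er_ab than in er_nor (*il1b*, *mmp13a*, *mmp9* and *srgn*) and 1 lower, *lyz*, the lysozyme of granulocytes (100 against 162 TPM, -0.69). *mpx* (0.47) and *npsn* (-0.23) of that list were not called. The summed level of the 8 markers ranged from 1207 to 1537 TPM in er_ab and 1042 to 1194 TPM in er_nor, most of it *cpa5*. *cpa5* measured 849 and 829 TPM and was not called. The sum mainly follows that gene and cannot serve as a measure of neutrophil number. Of the 7 tested macrophage markers 1 was higher, *marco* (0.75), with sums of 284 to 311 and 271 to 287 TPM. Of the 5 pan-leukocyte markers 0 were called, with sums of 76.4 to 81.9 and 66.0 to 68.4 TPM, and *ptprc* measured 6.91 and 6.21 TPM. In epidermal markers 1 of 5 was higher and 3 lower. At re_6h against lc_12h 5 of 8 neutrophil and inflammation, 2 of 7 macrophage and 3 of 5 pan-leukocyte markers were higher, and at re_2h 3, 1 and 2. In these comparisons 16.6% (re_6h) and 14.1% (re_2h) of all genes were called higher. At lc_24h against ctrl_96hpf 4 neutrophil and inflammation markers were higher and 3 lower, and 2 macrophage and 2 pan-leukocyte markers were lower. There 9.30% of all genes were called higher and 24.3% lower. The macrophage counts at re_2h and lc_24h were near the shares of all genes. None of these markers was at 0 in any group, and the markers of muscle (6), liver (5) and neurons (5) were all detected. Their sums differed between the survivors with no overlap, at 26580 to 27318 TPM in er_ab and 24757 to 25289 TPM in er_nor for muscle, 5630 to 6160 and 7771 to 8004 TPM for liver and 566 to 586 and 640 to 650 TPM for neurons. The same held for 6 erythrocyte markers (1582 to 1853 and 2046 to 2324 TPM), 5 epidermal markers (2653 to 2786 and 4134 to 4402 TPM) and 5 exocrine pancreas markers (8917 to 9502 and 9976 to 10353 TPM). It did not hold for lens and lymphocyte markers, whose sums overlapped. They were 2017 to 2078 TPM in er_ab and 1884 to 2421 TPM in er_nor for lens, and 2.9 to 3.32 and 3.3 to 4.19 TPM for lymphocytes. The part of these cells in the differences described above was not tested.

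The 9 genes varied together to different degrees. Over the 18 group means of log2(TPM + 1), Pearson's r was 0.93 between *stat1a* and *irf1b*, 0.88 between *stat1a* and *isg15* and 0.80 between *irf9* and *irf1b*, but 0.28 between *irf7* and *irf9* and -0.16 between *irf7* and *stat2*. These values describe 18 groups that share the developmental background and the sequencing of 1 series. The genes with the profile most like that of *irf7* among all genes with a mean of at least 1 TPM were *tagapa* (r = 0.974), *tnfrsfa* (0.968) and *myd88* (0.955). For *irf1b* they were *bcl3* (0.961), *si:dkey-42i9.6* (0.946) and *si:ch211-74m13.3* (0.941), and for *irf9* *adam8b* (0.942), *tbc1d2* (0.939) and *ftr43* (0.935). *isg15* was nearest to *tmprss2* (0.968), *isca1* (0.951) and *rps27l* (0.951), and *stat1a* to *rps27l* (0.943), *slc12a7a* (0.931) and *si:dkey-92i15.4* (0.930). *stat1b* was nearest to *scpp8* (0.970), *AL732515.2* (0.962) and *ggt1a* (0.952), and *stat2* to *tspan34* (0.953), *si:ch211-214p16.3* (0.949) and *scpep1* (0.946). For *mxa* and *rsad2* the nearest genes reached only 0.863 (*s1pr3a*) and 0.744 (*znf1015*).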

How the data were processed

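The deposited table gives TPM values that the authors made with Salmon 0.13.1, correcting for GC, sequence and position bias, on zebrafish cDNA of an Ensembl release, summarised to genes with tximport. TPM keeps no read depth, so the depth behind each value is unknown (TPM summed to 998493 to 999530 per sample), and no counting interval is given. Gene symbols are those of the table, with the ID of highest mean TPM for each symbol. Genes with at least 1 TPM in all 3 samples of a group (25387 of 30097) were tested with limma 3.58.1 in R 4.3.3 on log2(TPM + 1), with a mean-variance trend, no covariate and all 18 groups in 1 fit (36 residual degrees of freedom). Of the 24 comparisons, 16 follow the study's design and 8 were added. A gene was called when its adjusted p was 0.05 or less and it changed 1.5-fold or more. The procedure was run on simulated data with independent noise and changes larger than 1.5-fold. That run cannot speak to calls near the 1.5-fold line. The 9 genes, the pathway and marker lists were chosen with earlier results of these data known. Named list genes were up to 4 called genes with the smallest adjusted p per list and comparison, and up to 3 nearest genes by r were named per member. One gene of the other IRF list is not reported here. Cell type markers were used as sums and calls. A planned search for interferon motifs in promoters was not run, since no promoter sequences were used here. The exact permutation test used all divisions of 6 samples. Alternatives were other pseudocounts, filters, scalings, fits, thresholds, a replicate block and leaving out each library.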

Additional observations from a re-analysis of the deposited data

Results flagged for a closer look

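The change over 24 h of rewarming was compared between larvae that had spent 24 h and 12 h at 10 °C, as the difference between (survivor group minus lc_24h) and (re_24h minus lc_12h). This comparison was chosen after the data were seen, and the 2 treatments also differ in age. The survivor groups were sorted by outcome and lacked larvae that died after the cold, whereas no sorting is described for re_24h. The length of the cold, age, sorting and the loss of dead larvae cannot be told apart here. The share of all genes called was not counted for it, so the calls below cannot be set against a general rate. In er_ab the change was larger than after 12 h of cold for *isg15* by 1.42 (SE 0.27, adjusted p = 5e-05), for *irf9* by 0.89 (SE 0.26, adjusted p = 0.0059) and for *stat1b* by 1.97, on the log2(TPM + 1) scale with limma. *stat1b* passed the filter on low values only through re_6h and er_ab, and its difference with no filter had an SE of 0.19 and an adjusted p of 7.1e-11. In er_nor *irf1b* changed by -1.06 from lc_24h, where re_24h differed by 0.42 from lc_12h (difference -1.48, SE 0.25, adjusted p = 1.5e-05). *irf7* changed by -1.27 and -0.49 (difference -0.78, SE 0.29, adjusted p = 0.038). The *irf7* difference was lost without any of lc_12h replicate 1 (-0.69) or 2 (-0.58), lc_24h replicate 2 (-0.70) or 3 (-0.81), re_24h replicate 2 (-0.67) and er_nor replicate 3 (-0.55), and with a pseudocount of 0.1 (-0.87, adjusted p = 0.053). *irf1b* and *irf7* started from a higher level at lc_24h than at lc_12h, 17.8 against 5.83 TPM and 12.0 against 6.36 TPM. None of these differences was called in the other survivor group. They were -0.12 for *irf1b* and -0.14 for *irf7* in er_ab. In er_nor they were 0.15 for *isg15*, 0.30 for *irf9* and 0.34 for *stat1b*.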

How the results depend on the processing

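No called change of the 9 genes or of the named list genes reversed under any alternative run. Of 51 calls of the 9 genes, counting the rewarming differences, 30 were kept under every alternative in which they were tested, and so were 30 of 81 calls of named list genes. With a filter at 5 TPM 4 calls of *stat1b* and 27 of the list genes were not tested, and with only the groups compared in the fit 5 rewarming differences were not. The cause of the changes in counts was not tested, beyond a stricter threshold or filter leaving fewer calls. TPM carries no depth, so the precision of low genes such as *stat1b*, *mxa* and *rsad2* is known only from the 3 replicates. The alternatives for the pathway lists, for all genes, for the paralog ratio and for the rewarming differences were chosen after the data were seen.

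The number of the 9 genes called, with a fold of at least 2, was 0 for ctrl_108hpf and 1 for ctrl_132hpf against ctrl_96hpf, 0 for lc_12h against ctrl_96hpf, 3 for re_1h, 2 for re_2h, 0 for re_12h and 1 for re_24h against lc_12h, 3 between the survivors, 0 for lc_6h and 0 for lc_12h against their same-age controls and 2 for re_12h against lc_24h. With median-of-ratios scaling or quantile normalization it was 2 for lc_12h against ctrl_96hpf and 2 for lc_12h against ctrl_108hpf, and with quantile normalization 3 for re_1h. With a pseudocount of 0.1 or 0.5 it was 4 for re_12h against lc_12h, 2 for lc_12h against ctrl_108hpf and 1 for re_24h against ctrl_132hpf. With no filter it was 2 for lc_12h against ctrl_108hpf, with *rsad2* added, and with an adjusted p of at most 0.01 it was 3 between the survivors.

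Leaving out each library in turn, the count ran from 1 to 2 for lc_12h against ctrl_96hpf (1 with all libraries, 2 with *irf7* at 0.61 without ctrl_96hpf replicate 2 or 0.66 without lc_12h replicate 2), 1 to 3 for re_12h (2) against lc_12h, 3 to 5 between the survivors (5), 1 to 2 for lc_12h against ctrl_108hpf (1) and 0 to 2 for re_24h against ctrl_132hpf (0). Against lc_12h it also ran from 4 to 6 for re_1h (5) and from 4 to 6 for re_2h (4).

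All genes called numbered 3223 of 8518 for lc_24h, 1261 of 4268 for re_1h, 1635 of 5234 for re_2h, 1686 of 5548 for re_6h and 793 of 2620 between the survivors with a fold of at least 2. Genes of the pathway lists called numbered 27 for lc_24h, which became 14 with a filter at 5 TPM and 8 with a fold of at least 2. For re_1h 11 became 24 with a pseudocount of 0.1, 17 with a pseudocount of 0.5 and 4 with a fold of at least 2, and for re_2h 19 became 7 with that fold. For re_6h 29 became 17 with a filter at 5 TPM, 18 with quantile normalization and 8 with a fold of at least 2. Between the survivors 12 became 20 with a pseudocount of 0.1, 6 with a filter at 5 TPM and 3 with a fold of at least 2. The *stat1a* to *stat1b* difference ran from -2.28 with a pseudocount of 0.1 to -1.28 with median-of-ratios scaling, with the same p.

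Same-numbered samples of compared groups did not deviate together (correlations of -0.131 to 0.0835), so replicate numbers do not pair them. With the replicate number as a block, 0 calls of the 9 genes were lost and the count was 4 for lc_24h, 5 for re_1h, 4 for re_2h, 5 for re_6h and 5 between the survivors.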
